A study of Solanum pimpinellifolium with 6 samples.

Results

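Tomato miR9470 to miR9479 are a run of miRNAs that miRBase lists for tomato. The set described here holds every listed miRNA named miR9470 to miR9479, taken once per distinct mature sequence, which gave 28 sequences out of 629 in the whole list. They came from 32 listed entries at 20 hairpins and covered 9 of the numbers, with no entry for miR9476. To these belong the degradome sites assigned to the same miRNAs, 8 of 233 distinct sites. The set was chosen by name, but also in part because the tags at its site in NFS1 increased with temperature, so the NFS1 tags below are a description and carry no test.

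Leaves of the wild tomato LA2093 (Solanum pimpinellifolium), a heat-tolerant accession, were sampled from seedlings held for 8 h at 26/18 °C day/night (NT, the normal temperature), 33/33 °C (MET, moderately elevated) or 40/40 °C (AET, acutely elevated). Seedlings at MET and AET also received 1 additional irrigation with water a day, which NT seedlings did not, so temperature and this watering cannot be told apart. There was 1 small RNA (sRNA) library and 1 degradome library per temperature, made from mixed leaves of several seedlings. Values given for NT, MET and AET are those of these libraries. No difference has a replicate check, and every test compares the reads of a pair of libraries, not the temperatures. The files hold miRNAs and cleavage sites only, and the identity of the tissue was not checked against marker genes.

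A plant miRNA is cut from a hairpin precursor, and each arm of the hairpin can leave a mature strand of about the same length. The strand that enters an Argonaute protein pairs with a transcript and can direct its cleavage opposite the middle of the miRNA. A degradome library reads the 5′ ends of uncapped RNA, so a cut transcript gives tags that begin at the cut. Names ending in 5p or 3p belong to sequences listed as identical to a miRBase entry or as variants of one. Names ending in p5 or p3 belong to sequences listed as new. At some hairpins, that of miR9474 among them, both strands have such a name, so neither is the partner of a miRBase strand.

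The sequences that the results turn on are printed first, 5′ to 3′ and as the deposited list writes them (with T for U), with the seed (bases 2 to 8) in capitals. The 2 strands of the miR9470 hairpin come first because the strand with the most reads, spi-miR9470-3p, is the one assigned to NFS1. The hairpin was placed at chr8:393508-393984 on the plus strand. The sources used here do not name the genome build of these positions.
spi-miR9470-p5: tTGCTAGGtgggcaaaggtaa
spi-miR9470-3p: tTTGGCTCatggattttagc

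The other sequences that were called in a comparison follow, except spi-miR9475-p3, which is shown with its overlapping neighbours. They share no seed with each other. spi-miR9473-5p lay at chr7:3076297-3076415 (plus), the miR9474 hairpin at chr8:59305543-59305921 (minus), the miR9478-p5 hairpin at chr11:50080144-50080333 (plus) and the miR9479 hairpin at chr5:64278750-64278999 (plus).
spi-miR9473-5p: tGGCTGTAaatctaaactcgt
spi-miR9474-p5: gATAAAATctaagtttccaaaggc
spi-miR9474-p3: tGAGTGGCtaagtcgatggag
spi-miR9478-p5: aTCGAACTttgagaaaaggct
spi-miR9478-p3: aGTCTTTTctcatagttcgat
spi-miR9479-5p: tCCAGTCCtctacccttctcc
spi-miR9479-3p: aGAATGGTagagggtcggacc

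Members overlap in sequence within 3 of the names, so reads of 1 member can lie close to those of another. The miR9471 3p strands are equal at 20 of 21 bases and share a seed. Counted from 1 at the 5′ end, the difference from spi-miR9471a-3p to spi-miR9471b-3p is G20T. Their hairpins lie on the minus strand at chr12:1977726-1977906 and chr12:1979351-1979554, with 1444 bases between them.
spi-miR9471a-3p: tTGGCTGAgtgagcatcacgg
spi-miR9471b-3p: tTGGCTGAgtgagcatcactg

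The miR9475 names cover 8 sequences, of which 3 are overlapping 5p forms, and a 3p form matches the opposite strand of all 3 over 18 bases. The 22 nt spi-miR9475-p3 begins inside the 3p form and shares 14 bases with it. Of their hairpins, 5 were placed within 527 bases of chromosome 9, on both strands.
spi-miR9475-5p (21 nt, the most abundant): aACGATCTctacattgtaggc
spi-miR9475-5p (22 nt): gAACGATCtctacattgtaggc
spi-miR9475-5p (21 nt, the rarest): gAACGATCtctacattgtagg
spi-miR9475-3p: tACAATGTagagatcgttttg
spi-miR9475-p3 (22 nt): tAGAGATCgttttggaccaatt

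Likewise, the 3 sequences named spi-miR9478-3p share 18 to 20 bases with each other, and none of them lies on the hairpin of spi-miR9478-p5 and spi-miR9478-p3.
spi-miR9478-3p (24 nt): aAGTTCGAtgacatatttgagcct
spi-miR9478-3p (21 nt): tTCGATGAcatatttgagcgt
spi-miR9478-3p (24 nt, no position listed): aGTTCGATgacatatttgaggctt

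In length, 17 of the 28 sequences were 21 nt (60.7%, against 34.3% of all 629 distinct sequences) and 6 were 24 nt. A T stood at the first base of 15 (53.6%, against 38% of all 629). Only 5 of the 28 were marked as identical to a miRBase entry, 8 as variants of one and 15 as new, but those 5 held 86.8% of the reads of the set over the 3 libraries. The minimal folding free energy index (MFEI), a measure of how stable a hairpin is for its length and base content, was 0.3 to 0.7 for the miR9475 hairpins and 0.4 to 1.2 for those of miR9478. It was 0.9 to 1.3 for all the others. Of the 20 hairpins, 9 lay under 0.8, a limit that the study set for its newly predicted miRNAs and not for these. Among the 9 is the hairpin of the called 22 nt spi-miR9475-p3 (0.3), with a listed length of only 31. Outside the set, the only unbroken overlap of at least 14 bases with another listed sequence was 15 bases between spi-miR9477-p3 and spi-miR8045_stu.

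Levels are given as normalized reads, which the authors made by multiplying the raw reads by a factor (1.33 at NT, 0.833 at MET, 0.898 at AET). Raw reads over all distinct sequences came to 301702 at NT, 424963 at MET and 394910 at AET. The 28 sequences took 0.793%, 1.32% and 0.922% of these reads at NT, MET and AET. Lower shares of the set can come from fewer cells that express these miRNAs or from less RNA per cell. They can also come from more reads of other listed miRNAs. These cannot be told apart in whole leaves.

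A few strands carried most of the set. Together, spi-miR9470-3p, spi-miR9471a-3p and spi-miR9471b-3p held 77.8% of its reads at NT, 84.5% at MET and 83.0% at AET. spi-miR9470-3p ranked 19th, 13th and 15th of the 629 sequences by reads at NT, MET and AET, whereas 11 of the 28 sequences never reached 10 normalized reads.

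**Figure D1:**
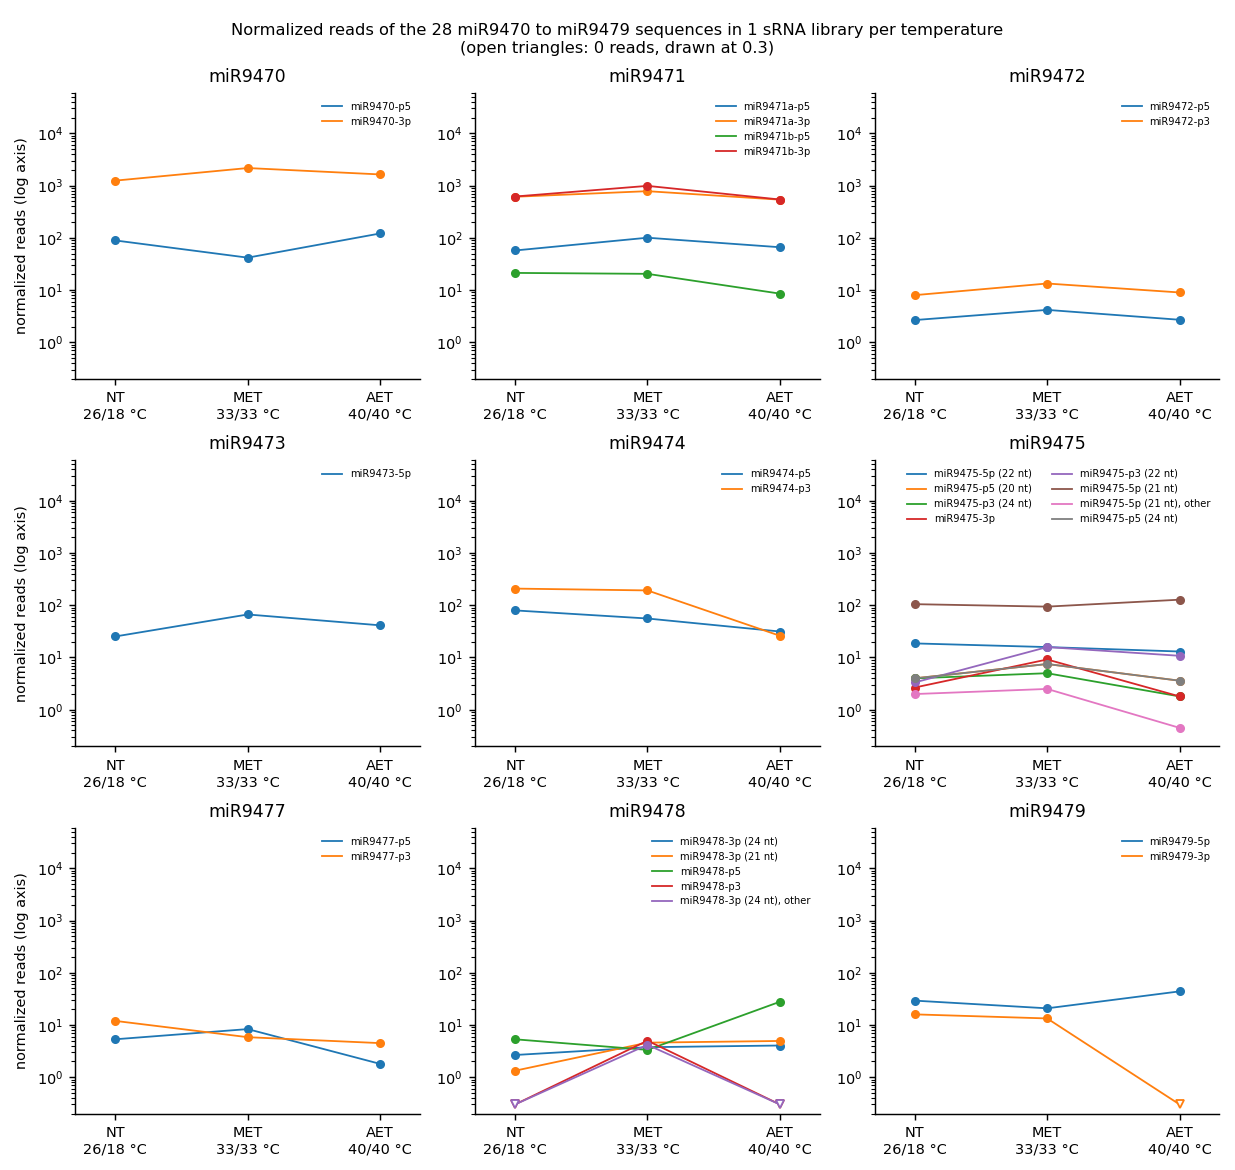
Normalized reads (log axis) of the 28 sequences at NT, MET and AET, 1 panel per miRNA number and 1 line per sequence, with open triangles for 0 reads (drawn at 0.3). spi-miR9470-3p and the miR9471 3p strands run between 537 and 2168, spi-miR9474-p3 lies at 26.0 at AET against 209 at NT, and the paired spi-miR9475-p5 sequences lie on top of each other.

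A sequence was called different between a pair of libraries by the study's rule, which asks for p of 0.05 or less from a chi-square test as well as from a two-sided Fisher's exact test, and for a log2 ratio of normalized reads of at least 1 in size. Where 1 of the libraries had 0 reads the ratio has no finite value and passes that limit whatever the count in the other. The ratio is on the scale of the authors' factors, whereas the tests set the normalized reads of a sequence against those of all other listed miRNAs. For MET against NT, 3 of the 28 tested sequences were called higher (10.7%, against 6.94% of all 605 tested) and 1 was called lower (3.57%, against 5.29%). For AET against NT, 2 of 26 were called higher (7.69%, against 13.4% of 597) and 3 lower (11.5%, against 8.71%). For AET against MET, 3 of 28 were called higher (10.7%, against 11.9% of 599) and 2 lower (7.14%, against 9.52%). Each of these counts is within a few sequences of what the share of the whole list would give, so they are no result about the set. The calls are not corrected for many tests, and the Fisher p-values below are also given after Benjamini-Hochberg adjustment over all sequences tested.

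Median log2 ratios of the set are given beside those of the whole list. Over the sequences with at least 10 normalized reads in 1 of the 2 libraries and reads in both, it was -0.09 for MET against NT (n = 16, against 0.01 over all 270 such sequences) and 0.21 for AET against NT (n = 15, against 0.15 over 282). For AET against MET it was -0.56 (n = 15, against 0.02 over 286), and 11 of those 15 sequences had a lower level at AET than at MET. Without a minimum of reads, the median for MET against NT was 0.43 (n = 26, against -0.09 over 497), so its sign and its distance from the whole list depend on that minimum. These medians have no test. Scaling by valid reads instead shifts every miRNA alike, so that the median of the whole list becomes 0.43, 0.29 and -0.27 in the same order.

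The miR9470 hairpin gave the largest number of reads. spi-miR9470-3p had 936 raw reads (1244 normalized) at NT, 2602 (2168) at MET and 1821 (1635) at AET. It was thus highest at MET, and higher at AET than at NT. Its ratio was 1.74-fold for MET against NT (log2 0.80, 95% interval 0.69 to 0.91) and 1.31-fold for AET against NT (log2 0.39, 0.28 to 0.51), both under the 2-fold limit of the rule. For AET against MET the log2 ratio was -0.41 (-0.49 to -0.32), and the strand was called in no comparison. The intervals cover counting error only.

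The other listed strand of this hairpin, spi-miR9470-p5, had ratios of the opposite sign for MET against NT and for AET against MET. It had 89.1, 41.7 and 121 normalized reads at NT, MET and AET (67, 50 and 135 raw reads). It was called lower in MET than in NT (log2 -1.10, interval -1.65 to -0.55, adjusted p = 0.00292 by Fisher's exact test) and higher in AET than in MET (log2 1.54, 1.06 to 2.04, adjusted p = 3.04e-09 by Fisher's exact test). For AET against NT the log2 ratio was 0.44 (0.01 to 0.89), not called. With scaling to the valid reads, the MET against NT call of spi-miR9470-p5 was lost (log2 -0.67) while that of spi-miR9470-3p was gained (log2 1.23).

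The miR9471 strands were next in abundance. spi-miR9471a-3p had 611, 782 and 537 normalized reads at NT, MET and AET, and spi-miR9471b-3p had 617, 987 and 541. Both were highest at MET and close to NT at AET. The log2 ratio for MET against NT was 0.36 (0.19 to 0.52) for spi-miR9471a-3p and 0.68 (0.52 to 0.84) for spi-miR9471b-3p, neither past the fold limit. With scaling by valid reads, spi-miR9471b-3p was called higher in MET than in NT (log2 1.10) and lower in AET than in MET (log2 -1.15). Their raw reads are whole numbers at MET (938 and 1185) but not at NT (459.5 and 464.5) or AET (598.5 and 602.5). How reads were assigned between these near-copies was not tested, so their division is uncertain. spi-miR9471a-3p took 49.8% of the reads of both at NT (exact binomial interval 46.5 to 53.1), 44.2% at MET (42.1 to 46.3) and 49.8% at AET (47.0 to 52.7).

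The other arms of these hairpins were much rarer. spi-miR9471a-p5 had 57.2, 100 and 66.0 normalized reads at NT, MET and AET, and spi-miR9471b-p5 had 21.3, 20.4 and 8.53. Neither was called in any comparison as processed here, but calls appeared under alternatives. spi-miR9471b-p5 had a log2 ratio of -1.26 for AET against MET (-2.38 to -0.04, adjusted p = 0.171 by Fisher's exact test) and was called lower with raw reads in the tests, with valid reads, with median-of-ratios size factors and with totals over distinct sequences. spi-miR9471a-p5 had a log2 ratio of 0.81 for MET against NT (0.29 to 1.34) and was called higher with scaling by valid reads (log2 1.24).

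spi-miR9473-5p, the only strand listed for its hairpin, was called in 1 comparison. It had 25.3, 66.7 and 41.3 normalized reads at NT, MET and AET (19, 80 and 46 raw reads), so that MET was highest. It was called higher in MET than in NT (2.64-fold, log2 1.40, 0.66 to 2.20, adjusted p = 2.07e-05 by Fisher's exact test). For AET against NT the log2 ratio was 0.71 (-0.09 to 1.56), which was not called.

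Both strands of miR9474 were called lower in AET than in NT. spi-miR9474-p3 had 209, 192 and 26.0 normalized reads at NT, MET and AET (157, 231 and 29 raw reads), the steepest fall of the set among sequences with reads in every library. Its log2 ratio was -3.0 for AET against NT (-3.63 to -2.42, adjusted p = 4.09e-31 by Fisher's exact test) and -2.89 for AET against MET (-3.50 to -2.33, adjusted p = 2.48e-30). The NT and MET libraries did not differ by the rule (log2 -0.12, -0.42 to 0.19).

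spi-miR9474-p5 had 79.8, 55.8 and 31.4 normalized reads at NT, MET and AET. It was called lower in AET than in NT (log2 -1.34, -1.99 to -0.72, adjusted p = 0.000292 by Fisher's exact test). For AET against MET its log2 ratio of -0.83 (-1.46 to -0.22) did not reach the fold limit, but it was called lower with scaling by valid reads (log2 -1.11). At AET the strands of miR9474 thus lay at nearly the same level, while spi-miR9474-p3 was the more abundant one in the NT and MET libraries.

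The miR9475 sequences were mostly rare. The abundant 21 nt spi-miR9475-5p had 105, 94.2 and 128 normalized reads at NT, MET and AET, and the 22 nt form had 18.6, 15.8 and 13.0, with no call for either. The 22 nt spi-miR9475-p3 had 3.32, 15.8 and 10.8 normalized reads (2.5, 19 and 12 raw reads). It was called higher in MET than in NT (log2 2.25, 0.52 to 5.72, adjusted p = 0.0154 by Fisher's exact test) and in AET than in NT (log2 1.70, -0.15 to 5.22, adjusted p = 0.0982), and the second call did not hold after adjustment. Its NT level lies under the floor of 3 reads (3.99 normalized reads in that library), so the size of these ratios is poorly fixed.

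spi-miR9475-3p had 2.66, 9.17 and 1.80 normalized reads at NT, MET and AET and was not called, although it was called lower in AET than in MET with raw reads in the tests, with valid reads and with totals over distinct sequences (log2 -2.35, or -2.64 with valid reads), and higher in MET than in NT with valid reads (log2 2.21). The 24 nt spi-miR9475-p3 had 3, 6 and 2 raw reads, and the rarest 5p form had 1.5, 3 and 0.5. The 20 nt and 24 nt sequences named spi-miR9475-p5 each had 3, 9 and 4 raw reads at NT, MET and AET. They differ in sequence and lie on different hairpins, but their listed reads are equal in all 3 libraries, and the cause of this was not tested.

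spi-miR9478-p5 was called higher in AET. It had 5.32, 3.33 and 27.8 normalized reads at NT, MET and AET (4, 4 and 31 raw reads), so that the AET library stood above the others. The log2 ratio was 2.39 for AET against NT (0.89 to 4.35, adjusted p = 0.000104 by Fisher's exact test) and 3.06 for AET against MET (1.56 to 5.03, adjusted p = 2.08e-05). The opposite strand, spi-miR9478-p3, had 6 raw reads (5.0 normalized) at MET and 0 in the NT and AET libraries. It was called higher in MET than in NT, but the 0 at NT passes the fold limit by itself. With NT set to the floor of 3 reads the ratio was only 1.25-fold, and the exact counting interval of the log2 ratio began at -0.44. The call did not hold after adjustment (adjusted p = 0.136 by Fisher's exact test). For AET against MET spi-miR9478-p3 was not called, with p = 0.0626 by Fisher's exact test before adjustment, close to the limit. Its calls under the alternatives are not listed here.

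The 3 sequences named spi-miR9478-3p had 0 to 5.5 raw reads in any library and were not called. 1 of them, the 24 nt sequence without a listed position, had 0, 5 and 0 raw reads at NT, MET and AET, the same pattern as spi-miR9478-p3. At these depths a count of 0 does not show absence, and the floor of 3 reads was set for that reason.

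The strands of miR9479 also went apart at AET. spi-miR9479-5p had 29.2, 20.8 and 44.0 normalized reads at NT, MET and AET (22, 25 and 49 raw reads). It was called higher in AET than in MET (log2 1.08, 0.36 to 1.84, adjusted p = 0.0193 by Fisher's exact test), and this call was lost with scaling to the valid reads (log2 0.79). spi-miR9479-3p had 12, 16 and 0 raw reads in the same libraries. It was called lower in AET than in NT (adjusted p = 0.000322 by Fisher's exact test) and lower in AET than in MET (adjusted p = 0.00170). With AET set to the floor of 3 reads, the ratios were 5.92-fold and 4.95-fold, without counting error in the other library. The exact counting intervals put the log2 ratio at -2.04 or lower against NT and at -1.84 or lower against MET.

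The remaining hairpins gave no call. spi-miR9472-p3 had 7.98, 13.3 and 8.98 normalized reads at NT, MET and AET, and spi-miR9472-p5 had 2.66, 4.17 and 2.69. spi-miR9477-p3, which was assigned to a ferric reductase transcript, had 12, 5.83 and 4.49 normalized reads (9, 7 and 5 raw reads), and spi-miR9477-p5 had 5.32, 8.33 and 1.80. With raw reads in the tests, spi-miR9477-p5 was called lower in AET than in MET (log2 -2.21).

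**Figure D2:**
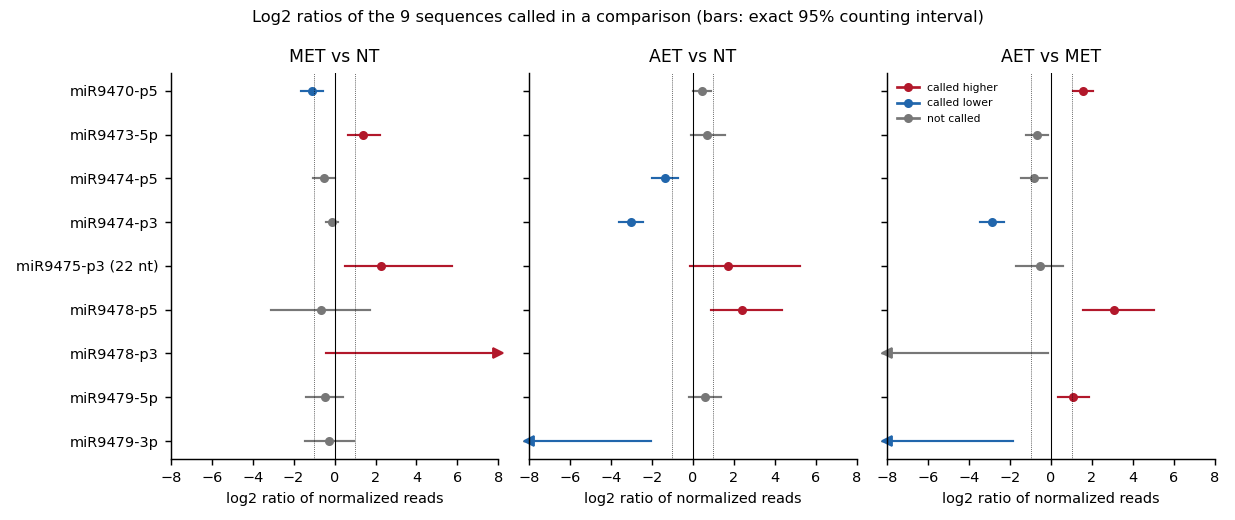
Log2 ratio of normalized reads for the 9 sequences called in at least 1 comparison, with the exact 95% counting interval and dotted lines at the fold limit of 2 (log2 of 1 either way). Arrows mark intervals with no limit because a library had 0 reads. spi-miR9470-p5 lies at -1.10 for MET against NT and 1.54 for AET against MET, and spi-miR9474-p3 at -3.0 for AET against NT.

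The share of the 5p arm among the reads of both arms does not depend on how libraries are scaled. The arm of each strand was taken from its listed name. It was compared by Fisher's exact test (two-sided, on rounded raw reads) over every hairpin of the list with 1 strand on each arm (82 in all, 9 of them in the set), with Benjamini-Hochberg adjustment over all hairpins tested. The share differed at 1 of the 9 hairpins for MET against NT (5% of all 80 tested), at 2 for AET against NT (8.97% of 78) and at 4 for AET against MET (26.9% of 78).

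At the miR9470 hairpin, the 5p share was 1.89% at MET (exact binomial interval 1.40 to 2.48) against 6.68% at NT (5.21 to 8.41), adjusted p = 4.60e-10 by Fisher's exact test. At AET it was 6.90% (5.82 to 8.12), which differed from MET (adjusted p = 5.07e-16 by Fisher's exact test) but not from NT by the test (p = 0.878 before adjustment, exact test). The MET library thus stood apart from NT and AET at this hairpin, through more normalized reads of the 3p arm and fewer of the 5p arm. The hairpin is listed at 467 bases, and whether its listed strands pair with each other was not tested. The shares are therefore not shown to be those of a strand and its partner.

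At the miR9474 hairpin the AET library stood apart. The 5p share was 54.7% at AET (41.7 to 67.2), against 27.6% at NT (21.8 to 34.1), adjusted p = 0.00269 by Fisher's exact test. Against the MET library, at 22.5% (17.9 to 27.7), the adjusted p was 1.51e-05. Of the listed strands, the one with more reads changed here, with 35 reads on the 5p arm and 29 on the 3p arm at AET. This hairpin is listed at 379 bases, and whether its strands pair with each other was likewise not tested.

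AET stood apart at miR9479 too. All 49 reads of this hairpin at AET were on the 5p arm (100%, interval from 92.7), against 64.7% at NT (46.5 to 80.3), adjusted p = 0.000221 by Fisher's exact test. The MET library had 61.0% (44.5 to 75.8), and the adjusted p for AET against MET was 9.36e-06. At miR9478 all 31 reads of the AET library were on the 5p arm (from 88.8), against 4 of 10 at MET (40%, 12.2 to 73.8), adjusted p = 0.000359 by Fisher's exact test. The NT library had only 4 reads there, all on the 5p arm.

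At the other 5 hairpins no difference in share was detectable. At miR9471a the 5p share was 8.55%, 11.3% and 11.0% at NT, MET and AET, and at miR9471b 3.33%, 1.99% and 1.63%. The miR9472, miR9475 and miR9477 hairpins had only 6 to 21 reads per library, and their intervals are wide. The miR9475 hairpin is listed with a length of 20, shorter than its 24 nt strand, although its listed position runs from 56989312 to 56989463. Its arms are therefore uncertain.

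**Figure D3:**
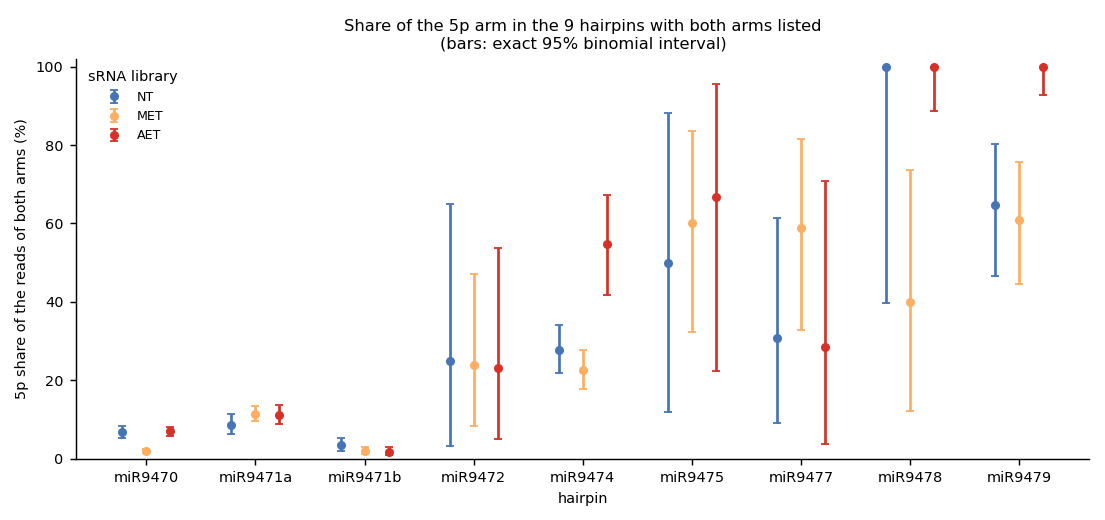
Share of the 5p arm (%) among the reads of both arms at the 9 hairpins with both arms listed, for the NT, MET and AET sRNA libraries, with exact 95% binomial intervals. The MET point of miR9470 (1.89%) lies under those of NT and AET, and the AET points of miR9474 (54.7%) and miR9479 (100%) lie above those of NT and MET.

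In the degradome tables, 8 sites on 8 transcripts were assigned to 5 of the 28 sequences. The authors give the tags at a site on a scale that is the same for every library (TPB), on which 1 read is worth 84.9 TPB at NT, 87.2 at MET and 92.1 at AET. By the listed positions, all 8 sites have the cut opposite base 10 of the miRNA, counted from its 5′ end. The same holds for 197 of the 233 distinct sites. The base was counted from the end of the listed alignment and takes no account of gaps. At several of these sites, NFS1 and AAD among them, the aligned stretch differs in length from the miRNA. The base opposite the cut is less certain there. Since most listed sites have the cut opposite base 10, this is no particular feature of these 8. The tables hold tags at sites only, so more cleavage and more of the transcript cannot be told apart.

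NFS1 (Solyc02g091900.2.1, annotated as nitrogen fixation S (NIFS)-like 1) had by far the most tags of the set. In Arabidopsis, NFS1 is the mitochondrial cysteine desulfurase, which takes sulfur from cysteine for the assembly of iron-sulfur clusters. The site is at position 467 of the transcript, inside the stretch from 456 to 476 that pairs with spi-miR9470-3p. It had 6 tags (510 TPB) at NT, 12 (1046 TPB) at MET and 18 (1658 TPB) at AET, with exact Poisson intervals of 2.20 to 13.1, 6.20 to 21 and 10.7 to 28.4 tags.

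The tags were thus ordered by temperature, and the intervals of all 3 libraries overlap. The ratio of TPB was 2.05-fold for MET against NT, 3.25-fold for AET against NT and 1.59-fold for AET against MET. Since this rise was a reason for describing the site, no test is given. At NT 5 sites had more tags than NFS1, at MET none had more and 1 had as many, and at AET none had more.

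Other sites give the background for this rise. Of the 38 sites with tags in all 3 libraries, 6 (15.8%) had more tags in MET than in NT and more in AET than in MET, NFS1 among them. On the TPB scale, where 1 tag is worth more at each higher temperature, 13 of the 38 (34.2%) were in that order. A ratio of at least 2-fold was seen for MET against NT at 30.5% of 59 sites with tags in both libraries, for AET against NT at 32.7% of 55 and for AET against MET at 23.1% of 52. The median site had 1 tag in each library.

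**Figure D4:**
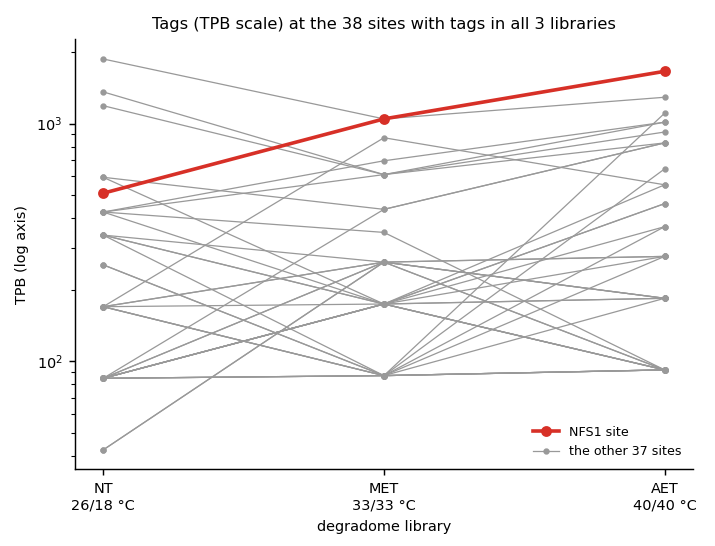
Tags on the TPB scale (log axis) at NT, MET and AET at the 38 sites with tags in all 3, with the NFS1 site in red and the other 37 in grey. The NFS1 site lies at 510, 1046 and 1658 TPB and is the highest of them at AET.

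The assignment of the NFS1 site rests on modest pairing. Its alignment score was 4, the highest penalty listed. The score sums penalties for mismatches and, at a lower weight, for G:U pairs, with more weight on part of the miRNA. It runs up to 4 among the listed sites. Sites with that score made up 6 of the 8 here and 114 of all 233 (48.9%). The p-value that the authors deposited for the degradome match was 0.740 at NT, 0.725 at MET and 0.737 at AET, so the match itself was not significant in any of them. The site was in category 2 in all 3 libraries, the class of sites whose tags lie above the median of the transcript and below its highest position.

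As listed, the level of the miRNA and the tags at the site did not follow the same order. spi-miR9470-3p had 1244, 2168 and 1635 normalized reads at NT, MET and AET, with the highest value at MET. The NFS1 tags had 510, 1046 and 1658 TPB, with the highest value at AET. Their ratio for AET against MET had a counting interval of 0.72 to 3.61, so the order of MET and AET at NFS1 is not fixed. With 3 temperatures and 1 library each, no relation between the miRNA and the tags was computed.

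The other targets of spi-miR9470-3p had few tags. AAD (Solyc10g080970.1.1), annotated as an amino acid dehydrogenase family protein, had 4 tags (340 TPB) at NT, 0 at MET and 2 (184 TPB) at AET at position 269. Its score of 3 was the lowest of the 8 sites, that is, the smallest penalty, and its deposited p-value was 0.195 in NT and 0.193 in AET. The exact Poisson interval of the 0 tags at MET reaches 3.69 tags, so AAD was not shown to be uncut there.

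SQD1 (Solyc08g063080.2.1) encodes an enzyme that makes the head group of the sulfolipid of chloroplast membranes. It had 2, 0 and 2 tags at NT, MET and AET at position 286, with deposited p-values of 0.740 and 0.737 where it had tags. NPC1 (Solyc09g020190.2.1), a non-specific phospholipase C, had 1, 1 and 0 tags at position 1471. At both AAD and SQD1 the MET degradome library had no tags, while the separate MET sRNA library had the most spi-miR9470-3p reads. With so few tags, no relation can be read from this.

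The sites of the other miRNAs were at 1 or 2 tags. UPL5 (Solyc05g054080.2.1), a ubiquitin ligase assigned to spi-miR9471a-3p, and AEBCA (Solyc07g053310.2.1), an adaptin ear-binding coat-associated protein assigned to spi-miR9471b-p5, each had 1 tag at NT and 0 in the others. FRT (Solyc09g019980.2.1), a cytochrome b561 and ferric reductase related protein assigned to spi-miR9477-p3, had 0, 2 and 1 tags at NT, MET and AET. CESA1 (Solyc08g061100.2.1), a cellulose synthase assigned to spi-miR9479-5p, had 1 tag at MET only. All of these lie at or under 3 tags, and no order of temperatures can be read from them.

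Over the 8 sites, 14 pairs of site and library had tags. None of them had a deposited p-value of 0.05 or less (range 0.193 to 0.862), against 10 of 130 sites at NT (7.69%), 10 of 113 at MET (8.85%) and 10 of 118 at AET (8.47%). Without NFS1, the other 7 sites together had 9 tags at NT, 4 at MET and 5 at AET, so NFS1 alone carried the rise of the sum to 15, 16 and 23 tags.

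**Figure D5:**
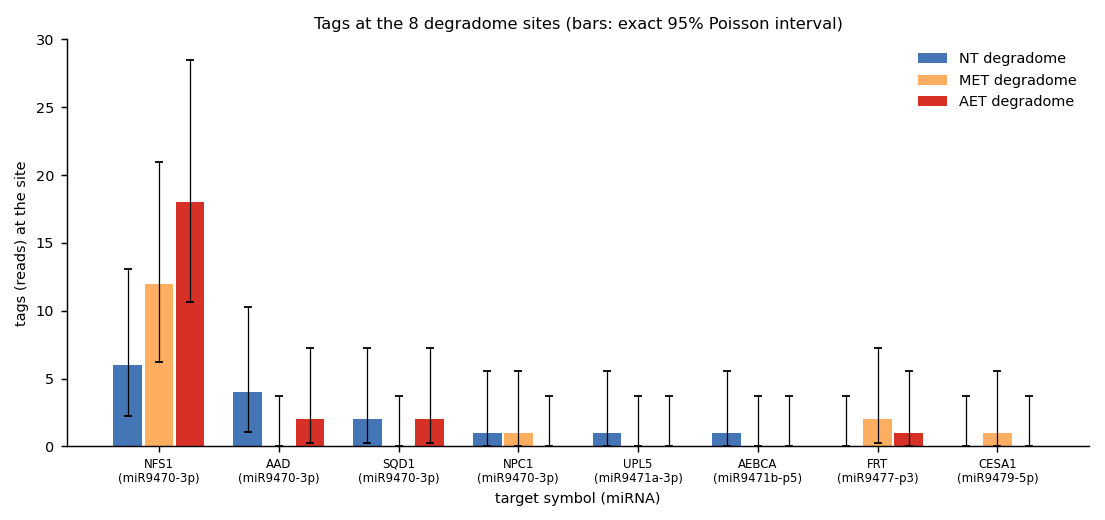
Tags (reads) at the 8 sites assigned to miRNAs of the set at NT, MET and AET, with exact 95% Poisson intervals. NFS1 has 6, 12 and 18 tags, and no other site has more than 4 in any library.

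NFS1 and SQD1 both handle sulfur, so other genes of iron-sulfur cluster assembly and of sulfur metabolism were looked up among the degradome symbols. Of 22 symbols, 3 were present. The list included NFS1 and SQD1 themselves, whose sites were already known, so the count is no result about sulfur genes. Besides NFS1 and SQD1 these were APS1, an ATP sulfurylase of sulfate assimilation, which was assigned to spi-miR395a_stu and had 1, 0 and 0 tags at NT, MET and AET. The other 19 symbols had no listed site, which does not show that their transcripts were uncut.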

How the data were processed

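Small RNA (sRNA) and degradome libraries of LA2093 leaves, 1 of each per temperature, were analysed from the deposited tables. The authors processed sRNA reads with ACGT101-miR, which filtered them by length and against other RNA classes and compared them with miRBase. They deposited raw reads, which were treated as estimated counts because some are not whole numbers, and reads normalized by 1 factor per library. For the degradome the authors deposited, per site, the alignment score, the category, the degradome p-value and the scaled tags (TPB). The tables of the authors' own comparisons (log2 ratios, p-values) were not used. Hairpin positions were printed as listed.

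Raw reads were rounded for exact intervals (conditional binomial for ratios, Clopper-Pearson for shares, Poisson for tags), all of which cover counting error only, since reads amplified by PCR are not independent molecules. Where a library had 0 reads, a ratio was formed with 3 reads as a floor, without counting error in the other library. Calls compared each distinct sequence with all listed reads by chi-square and Fisher's exact tests. TPB values were divided by the value of 1 read, which gave whole reads (within 0.001) at 88.5%, 92.9% and 95.8% of sites with tags in the NT, MET and AET libraries. The members and lists were chosen with earlier results of these data known. Full values are given for sequences that were called, that reached 10 normalized reads in a library or that lie on the other arm of such a sequence, and for every site. The tests were checked on simulated data in which the most abundant sequences were left unchanged. This restriction was added after a first simulation, in which those could change too, failed its preset limit: changes in them moved the library totals, so that fewer changes were recovered and more unchanged sequences were called. A call here is therefore relative to the listed total. Alternatives were other scalings, raw reads, other totals, adjusted p-values, filters on low reads and no fold limit. Statistics used scipy 1.17.1 under Python 3.11.15, with pandas 2.3.3, numpy 2.4.6 and, for plots, matplotlib 3.10.9.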

Additional observations from a re-analysis of the deposited data

How the results depend on the processing

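No paired analysis was possible because each temperature had 1 library per assay, and for the same reason no library could be left out. With each library scaled to its valid reads, 7 members were called higher and 0 lower for MET against NT, and 7 lower for AET against MET. Without the fold limit 7 were called higher for MET against NT, 7 higher for AET against NT and 8 lower for AET against MET. Raw reads in the tests gave 6, and totals over distinct sequences gave 5, called lower for AET against MET. Benjamini-Hochberg adjustment left 1 called higher for AET against NT. No other count of calls, no count of hairpins with a changed arm share and no median or NFS1 ratio moved beyond its limit (1.5 times for counts, 1 SD over the members for medians, the counting interval for NFS1), and no called sequence changed direction under any alternative. Among the sequences given with full values and with reads in both libraries compared, scaling to valid reads gained 8 calls and lost 2. The median log2 ratio changed sign, within that limit, for MET against NT with valid reads (0.34) and without a minimum of reads (0.43), and for AET against NT without the minimum (-0.15). The 3 reads or fewer behind many members limit what their ratios can show.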
